A study of Mus musculus with 72 samples.

Results

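The mouse mitochondrial genome encodes 37 genes, whose symbols begin with mt-, and all 37 were among the 51826 genes of the deposited count files. They comprise 13 mRNAs, 2 rRNAs and 22 tRNAs. No measured value was used to choose them. Their RNA was followed in E14TG2a cells, a mouse embryonic stem cell (mESC) line kept undifferentiated in 2i and LIF. The cells took up 4-thiouridine (4sU), a uridine analog that enters RNA made during the labeling, and alkylation with iodoacetamide makes sequencing report a C at a 4sU base (a T2C conversion). Digitonin released the cytosol, NP-40 then released a membrane fraction that holds the endoplasmic reticulum and the mitochondria, and the pellet was spun through a sucrose cushion to give the nucleus. Unfractionated extract is called whole cell. All cells were collected and lysed with cycloheximide, which halts translation on cytosolic ribosomes.

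Of 72 libraries, 18 came from each fraction. Labeling lasted 15, 20 or 30 min in replicates 1 and 2. It lasted 20, 40, 60 or 120 min in replicates 3 and 4, and 60 or 120 min in replicates 5 and 6. The sample labels give 100 µM 4sU for all libraries of 60 and 120 min, whereas the study's methods point to 500 µM for replicates 1 to 4 and 100 µM for replicates 5 and 6. Every cell was labeled, so that a dose and a replicate pair cannot be told apart at 60 min, and unlabeled cells were not analysed here. The 8 libraries of 120 min in replicates 3 and 4 were set aside, which leaves 64 libraries from 16 cultures. The paper excluded samples labeled at 500 µM for more than 60 min, because genes were differentially expressed from 120 min onwards. The labels number the replicates without saying what separates them, so p-values measure the spread between these libraries.

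Mitochondrial DNA is transcribed from both strands into long polycistronic RNAs. The tRNAs lie between most of the mRNAs and rRNAs, and their excision by RNase P and ELAC2 frees the RNAs on either side. Transcripts of the heavy strand include both rRNAs, most tRNAs and every mRNA but mt-Nd6, which comes from the light strand. The mRNAs encode subunits of complex I (mt-Nd1 to mt-Nd6 and mt-Nd4l), complex III (mt-Cytb), complex IV (mt-Co1 to mt-Co3) and complex V (mt-Atp6 and mt-Atp8), all parts of oxidative phosphorylation, and they are translated on mitochondrial ribosomes that contain mt-Rnr1 and mt-Rnr2. Short poly(A) tails are added to most of these mRNAs and complete stop codons that the DNA leaves unfinished. Libraries were made from poly(A)-selected RNA, so that what was measured is the polyadenylated part of these transcripts.

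The layout of the genes bears on what could be counted. Sequences were read from the Gencode transcripts of build GRCm38, with positions from their annotation on chromosome M. The first set shows the last 30 bases of 4 mRNAs on the plus strand, with the last complete or partial codon in capitals, because in 3 of them the annotated gene ends on the first base of a stop codon that only the poly(A) tail completes.
mt-Co3, chrM:9361-9390: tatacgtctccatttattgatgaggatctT
mt-Nd4, chrM:11515-11544: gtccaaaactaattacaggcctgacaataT
mt-Cytb, chrM:15259-15288: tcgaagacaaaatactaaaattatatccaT
mt-Nd1, chrM:3678-3707: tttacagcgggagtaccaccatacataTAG

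The genes mt-Atp8 and mt-Atp6 share 43 bases, and mt-Nd4l and mt-Nd4 share 7 bases, on the same strand. The shared bases are in capitals, with 15 bases of mt-Atp8 or mt-Nd4l before them and 15 of mt-Atp6 or mt-Nd4 after them. A read over them belongs to both genes of a pair.
mt-Atp8/mt-Atp6, chrM:7912-7984: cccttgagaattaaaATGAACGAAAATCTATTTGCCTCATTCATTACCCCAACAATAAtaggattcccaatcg
mt-Nd4l/mt-Nd4, chrM:10152-10188: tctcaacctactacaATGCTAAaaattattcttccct

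A conversion can only be seen at a T. Of the bases of mt-Nd6, 43.7% are T, against 27.4% to 32.8% (median 29.4%) in the 12 heavy-strand mRNAs and 26.4% in both rRNAs. The first 120 bases of 4 RNAs whose labeling is described in detail are shown with each T in capitals. The windows of mt-Nd2, mt-Co1 and mt-Rnr1 are on the plus strand, and that of mt-Nd6 is on the minus strand.
mt-Nd6, chrM:13951-14070: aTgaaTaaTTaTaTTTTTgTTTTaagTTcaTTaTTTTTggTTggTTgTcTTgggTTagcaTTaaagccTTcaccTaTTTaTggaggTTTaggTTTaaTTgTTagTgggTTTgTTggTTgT
mt-Nd2, chrM:3914-4033: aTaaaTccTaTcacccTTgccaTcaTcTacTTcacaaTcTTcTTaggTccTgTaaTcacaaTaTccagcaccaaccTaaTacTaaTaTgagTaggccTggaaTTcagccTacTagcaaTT
mt-Co1, chrM:5328-5447: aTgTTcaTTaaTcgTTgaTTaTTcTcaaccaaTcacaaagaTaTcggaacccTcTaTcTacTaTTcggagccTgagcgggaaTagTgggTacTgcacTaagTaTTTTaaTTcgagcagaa
mt-Rnr1, chrM:70-189: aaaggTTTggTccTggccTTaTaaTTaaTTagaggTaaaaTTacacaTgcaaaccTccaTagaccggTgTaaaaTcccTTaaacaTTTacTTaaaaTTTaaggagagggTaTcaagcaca

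Part of the mitochondrial genome has a nearly identical copy in the nuclear genome, annotated as a run of unprocessed pseudogenes on the minus strand of chromosome 1. The copies of mt-Co2 (Gm28661, 681 bases aligned), mt-Atp6 (Gm10925, 678), mt-Co3 (Gm28437, 783), mt-Nd4l (Gm10222, 294) and part of mt-Nd4 (Gm28439, 876) were 100% identical over the aligned bases. The copy of mt-Nd3 (Gm28438) differed at 1 of 345 bases, T3C, counted from 1 at the first base of the gene. The differing base is in capitals, with mt-Nd3 on the plus and Gm28438 on the minus strand.
mt-Nd3, chrM:9459-9491: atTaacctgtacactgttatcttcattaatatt
Gm28438, chr1:24613087-24613119: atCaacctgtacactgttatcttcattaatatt

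Between 15382522 and 52975732 reads per library (median 21362457) were counted on genes. Markers of mESC such as Pou5f1 and Nanog were present in every library, at a summed 5041 to 9821 CPM (reads of a gene scaled to the counted reads of its library), and 10 feeder fibroblast markers summed to 0.710 to 25.2 CPM. Markers of the endoplasmic reticulum and cell surface were higher in the membrane than in the cytosol for 12 of 12 genes (24.6% of all genes tested). The same 12 of 12 were also higher in the nucleus than in the cytosol (43.7% of all genes). Of 8 markers of nuclear RNA 7 were higher in the nucleus than in the cytosol. Of 12 cytosolic markers 9 were lower in the nucleus than in the cytosol, as were 3669 of 17270 genes. Of the same 12 cytosolic markers 4 were lower in the membrane than in the cytosol, where 13.5% of all genes were. The whole-cell libraries of replicate 6 went against their labels: the median share of new RNA of nuclear-encoded genes was 0.391 in the library labelled 60 min and 0.182 in that labelled 120 min, whereas replicate 5 gave 0.223 and 0.408. Whole-cell results on labeling are given with and without both, and the counts of members called over time were the same without them.

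Mitochondrial RNA made up a large part of the membrane fraction and very little of the cytosol. Over 16 libraries each, reads of the 37 genes were 4.82% to 16.5% of counted reads in the membrane (median 11.6%), 3.20% to 8.21% in whole cells (median 4.54%), 0.516% to 1.82% in the nucleus (median 0.945%) and 0.0313% to 0.254% in the cytosol (median 0.155%). The ranges of membrane and whole cells overlapped, and those of the nucleus and the cytosol overlapped with no other. In the membrane the 13 mRNAs took a median 10.2%, the 2 rRNAs 1.14% and the 22 tRNAs 0.00085%. These percentages hold uniquely placed reads only. Almost none of them fell on mt-Co2, mt-Co3 and mt-Atp6, which have identical copies on chromosome 1, so that reads matching both places are left out. In these bulk libraries fewer mitochondria and less RNA per mitochondrion cannot be told apart.

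The members differed widely in how many reads could be counted on them. The mRNA of cytochrome c oxidase subunit 1, mt-Co1, was at 17436 CPM in the lowest, 46294 in the median and 68166 in the highest of 16 membrane libraries. The complex I subunit mt-Nd1 followed with 10441, 19999 and 34230 CPM, and the complex III subunit mt-Cytb with 9324, 19073 and 26925 CPM. These 3 mRNAs held most of the counted mitochondrial reads.

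The other complex I mRNAs were lower. In the membrane mt-Nd2 had 2290, 5651 and 9443 CPM (lowest, median and highest), mt-Nd5 1742, 5300 and 7432, and mt-Nd4 2514, 4914 and 7819. Of the 1378 bases of mt-Nd4, 876 have the identical copy Gm28439, and its CPM hold uniquely placed reads only. CPM are also not divided by gene length. Per T base, as given below, the median of mt-Nd4 was above those of mt-Nd2 and mt-Nd5. The light-strand mt-Nd6 had 123, 236 and 565 CPM. Its lowest membrane library was above the highest cytosol library, at 1.62 CPM, and 2 of 16 cytosol libraries held no read of it. The small rRNA mt-Rnr1 was at 1887, 4046 and 10623 CPM and the large rRNA mt-Rnr2 at 2275, 7327 and 17867 CPM. Both are among the most abundant RNAs of a cell, and poly(A) selection does not measure that abundance.

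The remaining 6 mRNAs were almost without counted reads in any of the 72 libraries. The highest count in a library was 50 for mt-Co2, 13 for mt-Co3, 12 for mt-Atp6, 5 for mt-Atp8 and 3 each for mt-Nd3 and mt-Nd4l. These are counts of uniquely placed reads, and 5 of the 6 genes have the chromosome 1 copy described above, while mt-Atp8 overlaps mt-Atp6. Reads that were not uniquely placed made up 19.4% to 34.9% of a library. Of the 22 tRNAs 14 had any count and 8 were at 0 in all 72 libraries. The most counted were mt-Tp (median of 102.5 reads in the membrane), mt-Tw (51.5), mt-Tq (30.5), mt-Tt (12) and mt-Tm (8.5).

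**Figure D1:**
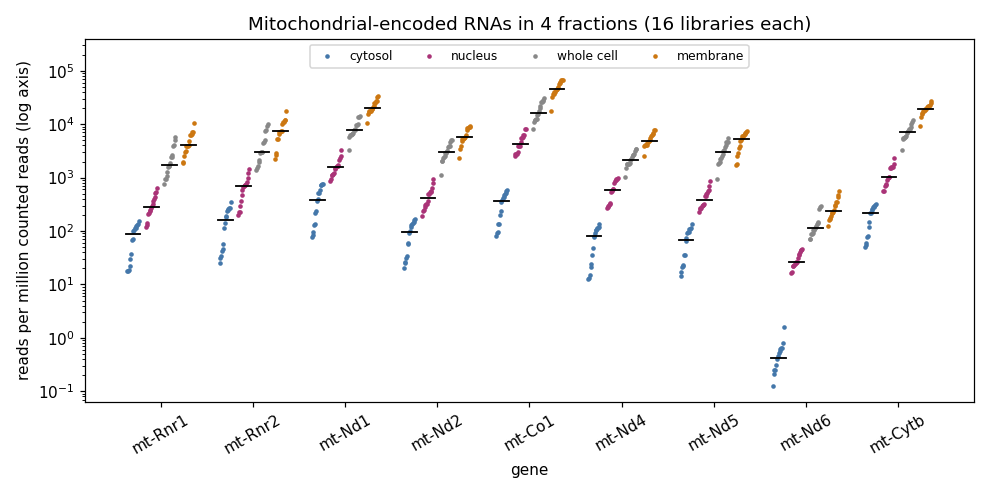
CPM on a log axis for the 7 countable mt mRNAs and both rRNAs, with 16 libraries per fraction as points and medians as black bars. The 4 fractions lie in the same order for each RNA, from cytosol through nucleus and whole cell to membrane, with mt-Nd6 at or near 0 in the cytosol.

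The question of where these RNAs were recovered was put to edgeR's quasi-likelihood test over 17270 genes, in which 15 members entered (7 mRNAs, both rRNAs and 6 tRNAs). The tRNAs were at or near 0 reads in the cytosol and entered through the other fractions, which fixes their direction, as it does for mt-Nd6 (median of 9 reads in the cytosol), so counts are given for members with at least 10 reads in each library of both fractions compared. A call needed an adjusted p under 0.05 and a log2 difference over 0.5. Between membrane and cytosol 8 of 8 (6 mRNAs and both rRNAs) were higher in the membrane, where 24.6% of all genes tested were higher. Their log2 differences were 6.24 to 7.72 with a median of 6.68, against a median of -0.15 over all genes. The whole table split into 4254 genes higher and 2325 lower. With library sizes of nuclear-encoded genes alone that split was 3945 and 4507 and the median of all genes was -0.28, and the 8 members were still called higher.

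The fitted difference of the light-strand mt-Nd6 was 9.56 ± 0.23 (log2, SE), with 123 CPM or more in each membrane library and 1.62 or less in each cytosol library. For edgeR, SE here is the size of the difference divided by the square root of the F value of its test. It is thus an approximation, most of all where reads are few. The difference of mt-Co1 was 7.72 ± 0.18, with 81.3, 371 and 579 CPM in the lowest, median and highest cytosol library. Smaller differences were seen for mt-Nd1 (6.34 ± 0.20) and mt-Rnr2 (6.24 ± 0.24). Membrane and cytosol libraries did not overlap for any member but mt-Tm. The makeup of the counted mt-mRNA reads, with almost none on mt-Co2, mt-Co3 and mt-Atp6, differed between the fractions too. The share of mt-mRNA reads on mt-Co1 had a median of 30.0% in the cytosol, 45.4% in the membrane and 52.7% in the nucleus, and that on mt-Nd1 32.0%, 20.8% and 19.0%.

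Mitochondrial RNA was also recovered with the nuclei. In the nucleus the same 8 of 8 members were higher than in the cytosol, where 43.7% of all genes were higher. In the nucleus mt-Nd6 was at 16.1, 26.7 and 45.3 CPM (lowest, median and highest), and its log2 difference was 6.05 ± 0.22. For mt-Co1, nuclear libraries held 2567, 4224 and 8263 CPM and the difference was 3.97 ± 0.15. The other mRNAs differed by 2.22 (mt-Nd1) to 3.23 (mt-Nd4), and mt-Rnr1 by 2.16 ± 0.19. For mt-Tt, with a median of 1 read in the nucleus and 0.5 in the cytosol, the difference was 1.21 ± 0.48 (edgeR, adjusted p = 0.0174), and the call was lost in 6 alternatives (adjusted p of 0.0574 to 0.151). Libraries of the 2 fractions overlapped for mt-Rnr1, mt-Rnr2, mt-Tm, mt-Tw, mt-Ta and mt-Tt. The 12 membrane markers summed to 2865 to 5780 CPM in the nucleus and 381 to 1321 CPM in the cytosol, and their part in the mitochondrial reads of the nuclei was not tested.

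Set against the nucleus, the membrane was higher for 9 of 9 members with at least 10 reads in each library (7 mRNAs and both rRNAs), where 28.5% of all genes were. Differences ran from 3.51 ± 0.16 for mt-Nd6 to 4.47 ± 0.17 for mt-Cytb among the mRNAs. Both rRNAs lay in the same range (mt-Rnr1 4.27 ± 0.21, mt-Rnr2 4.01 ± 0.21), and the values of the 6 tRNAs, with nuclear medians of 1 read for mt-Tm and mt-Tt and 2.5 for mt-Ta, were 1.45 ± 0.38 (mt-Ta) to 3.33 ± 0.32 (mt-Tt). Libraries overlapped for mt-Tq, mt-Tm, mt-Ta, mt-Tt and mt-Tp and for no mRNA or rRNA.

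Nuclear-encoded mRNAs for the machinery that transcribes, cleaves and stabilises mitochondrial RNA were compared in the same fit. Of 36 such genes 4 (11.1%) were higher in the membrane than in the cytosol and 1 (2.78%) lower, where 24.6% and 13.5% of all genes were, with a median log2 difference of -0.15, as over all genes. The 4 were Fastkd2 (1.19 ± 0.11), which binds mt-Rnr2, the mitochondrial RNA polymerase Polrmt (0.90 ± 0.11), Fastkd5 (0.80 ± 0.06), which takes part in processing of mRNAs that no tRNA flanks, and the tRNA 3' endonuclease Elac2 (0.54 ± 0.08). The transcription factor Tfb2m was lower (-0.54 ± 0.11). These mRNAs are translated outside the mitochondrial matrix.

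Whether the amount of mitochondrial RNA changed during the labeling was tested within replicates. Between 20 and 60 min in replicates 3 and 4, none of 15 members was called in whole cells and none of 17 in the membrane, where edgeR called 0.0% of all genes in both. From 20 to 120 min in the same replicates no member was called either, with 0.113% of all genes called in whole cells and 0.0741% in the membrane. That comparison used the 120 min libraries that were otherwise set aside. From 60 to 120 min in replicates 5 and 6 the count was again 0, with 0.0% of all genes called in both. At an unadjusted p under 0.05 there were 1, 1 and 0 members in whole cells and 3, 4 and 0 in the membrane, and DESeq2 called none. With 2 libraries per group the differences were loosely measured, as for mt-Co1 in the membrane (0.22 ± 0.28 from 20 to 60 min) and mt-Rnr2 there (1.07 ± 0.40).

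Replicate pairs differed more than time points. At 20 min whole-cell mt-Co1 was at 28845 and 25649 CPM in replicates 1 and 2 and at 12470 and 14881 CPM in replicates 3 and 4, without overlap, a log2 difference of -0.97 ± 0.30 (edgeR, adjusted p = 0.0251). The tRNAs mt-Tw (-2.08 ± 0.46, adjusted p = 0.00419) and mt-Tp (-1.64 ± 0.52, adjusted p = 0.0310) were lower too, so that 3 of 15 members were called lower, where 11.9% of all genes were. The lower level was not particular to mitochondrial RNA. Of the 12 markers of endoplasmic reticulum and cell surface 12 were called lower, with a median log2 difference of -0.96. Of 12 cytosolic markers 3 were called higher and 0 lower. The other 12 mitochondrial members also had negative differences and were not called. The count moved with single libraries, as did the calls over all genes: it was 9 of 19 without replicate 2 (11.3% of all genes lower), 1 of 17 without replicate 4 (4.72%) and 0 of 19 without replicate 3 (1.23%). Each of these fits leaves 1 library in a group, which is assumed to vary like the other groups. Because of such differences, rises of labeling were also computed within replicate pairs.

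Labeling was read from the counts of T bases and of T2C conversions over the exons of a gene. The share of new to total RNA is the T2C count divided by the T count and by the conversion rate of new RNA in that library, and it was used where a gene had at least 400 T counts. The rate was fitted to the reads of a whole library and not to mitochondrial RNA alone. Whether it holds for mitochondrial RNA was not tested, and all shares and half-lives below rest on it. No background was subtracted. These T counts were placed differently from the read counts: for mt-Co2, mt-Atp6 and mt-Co3 nearly all T counts fell on the chromosome 1 copy. Membrane libraries had a median of 23120951.5 T counts on Gm28661 and 687 on mt-Co2. They had 20675503 on Gm10925 and 516 on mt-Atp6, and 27355176 on Gm28437 and 695.5 on mt-Co3.

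The other pairs were split otherwise. For mt-Co1 there were 48516543 T counts on the gene and 16945974.5 on Gm29216, a copy of its last bases, and a median of 26.0% lay on the copy. For mt-Nd3, with 1555510 on the gene and 178334 on Gm28438, it was 10.6%. For mt-Nd4l nearly all lay on the gene (614829 against 120 on Gm10222). Shares of mt-Co2, mt-Atp6 and mt-Co3 are therefore given from the rows of their copies. Whether any of these reads came from chromosome 1 was not tested.

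With the copies added, the mRNAs could be ordered per T base. Relative to mt-Co1 in the same membrane library, the median level was 96.7% for mt-Co2 (85.4% to 139%), 85.9% for mt-Co3 (69.0% to 117%) and 76.6% for mt-Atp6 (59.6% to 99.8%). These 3 ranges overlapped each other. Those of mt-Co2 and mt-Co3 included 100%, the level of mt-Co1, and mt-Atp6 was below it in each library. Next came mt-Nd1 at 48.8% and mt-Cytb at 38.4%, then mt-Nd4 at 16.3%, mt-Nd2 at 14.7% and mt-Nd3 at 12.3%. The rRNAs mt-Rnr1 (10.1%) and mt-Rnr2 (9.72%) stood near them, and mt-Nd4l (5.14%), mt-Nd5 (4.81%) and mt-Nd6 (0.860%) were lowest. The genes mt-Nd4l and mt-Nd4 overlap with no tRNA between them and need not be separate RNAs. The part of read placement in their different levels was not tested. In 15 of 16 membrane libraries mt-Nd6 was below all other mRNAs but mt-Atp8 in this measure, with a range of 0.475% to 1.46%. All these levels are of RNA kept by poly(A) selection. For mt-Nd6, as for the rRNAs, they do not measure the abundance of the RNA in the cell.

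**Figure D2:**
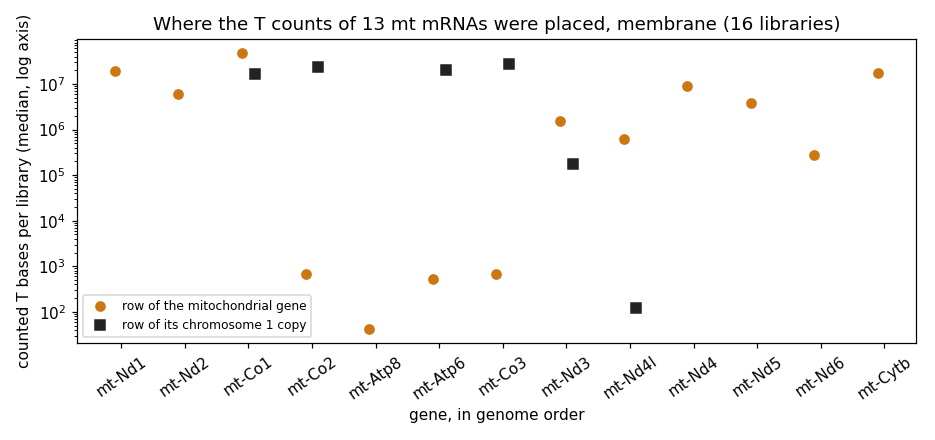
Median number of counted T bases per membrane library (16 libraries, log axis) on the row of each mt mRNA and on the row of its chromosome 1 copy. For mt-Co2, mt-Atp6 and mt-Co3 the copy holds 20675503 to 27355176 T counts and the gene itself 516 to 695.5.

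New RNA built up quickly among the mitochondrial mRNAs. Summed over the 13 mRNAs, the share in the membrane was 0.0472 and 0.0495 at 15 min, and in replicates 5 and 6 it reached 0.356 and 0.331 at 120 min. The summed share rose with time in all 4 fractions. Pearson's r over 16 libraries was 0.962 in the nucleus, 0.914 in the cytosol and 0.935 in the membrane, each with a Spearman's rho of 0.982 and a permutation p of 1e-05, the smallest that 100000 permutations can give (adjusted over the 4 fractions, 1.33e-05). When the 2 libraries with the most distant times were left out, r was 0.965, 0.980 and 0.979, and 0.970 in whole cells.

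In whole cells r was 0.772 (permutation p = 0.00022, rho 0.937, p = 2e-05). There the 60 min library of replicate 6 had a summed share of 0.308 and its 120 min library 0.197, and without both r was 0.916. Within replicates 1 and 2 r was 0.980 to 0.988 in the 4 fractions (exact permutation p = 0.0111) and within replicates 3 and 4 0.973 to 0.998 (exact p = 0.0222). Replicates 5 and 6, with 4 libraries and a smallest exact p of 0.333, gave 0.960 to 0.991 in the 3 fractions and -0.215 (exact p = 1) in whole cells.

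The heavy-strand mRNAs of complex I had the highest shares in each membrane library of 60 and 120 min. For mt-Nd2 the share was 0.103 and 0.112 at 15 min, 0.192, 0.234, 0.273 and 0.254 at 20 min in replicates 1 to 4, and 0.321 and 0.371 at 30 min. It was 0.454 and 0.403 at 40 min, 0.534, 0.543, 0.587 and 0.546 at 60 min in replicates 3 to 6, and 0.564 and 0.538 at 120 min. The share rose from each time to the next up to 60 min, and the 120 min values lay within the range of the 60 min values.

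Next to it, mt-Nd4l started highest of all mRNAs, at 0.181 and 0.180, and reached 0.579 and 0.529 at 120 min. The share of mt-Nd5 went from 0.0725 and 0.0703 to 0.506 and 0.483, and that of mt-Nd3 from 0.0944 and 0.0963 to 0.488 and 0.462. For mt-Nd4 it went from 0.0738 and 0.0772 to 0.483 and 0.453. No tRNA lies between mt-Nd4l and mt-Nd4, which overlap by 7 bases, so that they need not be separate RNAs. Both have bases identical to a copy, Gm10222 or Gm28439. The part of read placement in their different shares was not tested. At 120 min the shares of mt-Nd4l, mt-Nd5, mt-Nd3, mt-Nd4 and mt-Nd2 lay between 0.453 and 0.579.

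Above a share of 0.4 at 120 min were also mt-Nd1 (0.453 and 0.414, from 0.0490 and 0.0517 at 15 min) and, in 1 of 2 libraries, mt-Cytb (0.429 and 0.395, from 0.0560 and 0.0576). The mRNA of complex IV, mt-Co1, was labeled more slowly. Its share was 0.0255 in both libraries at 15 min, 0.0420, 0.0446, 0.0630 and 0.0616 at 20 min, 0.0639 and 0.0667 at 30 min, and 0.101 and 0.0936 at 40 min. It was 0.141, 0.138, 0.154 and 0.140 at 60 min and 0.233 and 0.218 at 120 min, below every heavy-strand mRNA of complex I and III at each of these times.

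The copies carried the T counts of the other mRNAs. At 120 min the shares were 0.227 and 0.209 on Gm29216 (the last part of mt-Co1), 0.310 and 0.286 on Gm28661 (mt-Co2), 0.318 and 0.294 on Gm28437 (mt-Co3) and 0.254 and 0.238 on Gm10925 (mt-Atp6). The shares on Gm28661 and Gm28437 were above those of mt-Co1 (0.233 and 0.218) without overlap. Gm28438 differed, with 0.228 and 0.241 at 15 min and 0.728 and 0.719 at 120 min, where mt-Nd3 itself had 0.488 and 0.462. The part in this of the differing base shown above was not tested.

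Summed shares were compared between complexes within each membrane library. Complex IV was lower than the heavy-strand mRNAs of complex I by 1.45 ± 0.19 (log2, SD, n = 16), lower in 16 of 16 libraries (two-sided permutation test by sign flips, p = 3.05e-05, the smallest possible, adjusted over 3 comparisons 9.16e-05). Nearly all T counts of this complex IV value were on mt-Co1. With the chromosome 1 copies included the log2 difference was -1.21. The median over genes in place of sums gave 0.41 (adjusted p = 0.151), a value that weights the few T counts on the rows of mt-Co2 and mt-Co3 like those of mt-Co1.

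The light-strand mRNA followed another course. The share of mt-Nd6 in the membrane was 0.107 and 0.0911 at 15 min, 0.177, 0.172, 0.194 and 0.123 at 20 min, and 0.238 and 0.265 at 30 min. It then stayed at 0.230 and 0.223 at 40 min, 0.253, 0.238, 0.267 and 0.271 at 60 min, and 0.276 and 0.286 at 120 min. At 15 min it was above mt-Nd1, mt-Nd4, mt-Nd5, mt-Cytb and mt-Co1, and at 120 min it was below each heavy-strand mRNA of complex I and III. Against the 12 heavy-strand mRNAs summed, the log2 difference was 0.40 ± 0.52 (SD, n = 16), higher in 11 of 16 libraries (permutation test by sign flips, adjusted p = 0.00916), with values from -0.37 to 1.18. It was 0.25 without replicate 1 and 0.29 without replicate 2 (adjusted p = 0.0732 in both), and -0.33 against the median of the genes (adjusted p = 0.0119). The sign thus depended on whether the heavy-strand RNAs were summed or taken gene by gene. Shares of mt-Nd6 are those of its RNA kept by poly(A) selection.

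The small rRNA was labeled slowest. For mt-Rnr1 the membrane share was 0.0147 and 0.0136 at 15 min, 0.0191, 0.0176, 0.0250 and 0.0264 at 20 min, and 0.0220 and 0.0242 at 30 min. It was 0.0386 and 0.0357 at 40 min, 0.0517, 0.0466, 0.0471 and 0.0434 at 60 min, and 0.0872 and 0.0854 at 120 min, below every countable mRNA throughout. The T2C conversions behind the lowest values were 0.0357% and 0.0329% of T bases at 15 min, where an unsubtracted background would weigh most.

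No steady rise was seen for mt-Rnr2. Its membrane share was 0.0345 and 0.0509 at 15 min, 0.121, 0.119, 0.183 and 0.216 at 20 min, 0.111 and 0.152 at 30 min, and 0.129 and 0.0722 at 40 min. It was 0.155, 0.144, 0.0652 and 0.0679 at 60 min in replicates 3 to 6, and 0.0757 and 0.107 at 120 min. Both rRNAs summed were below the 13 mRNAs by 0.99 ± 0.82 (log2, SD, n = 16) and higher in 2 of 16 libraries (permutation test by sign flips, adjusted p = 0.000366).

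**Figure D3:**
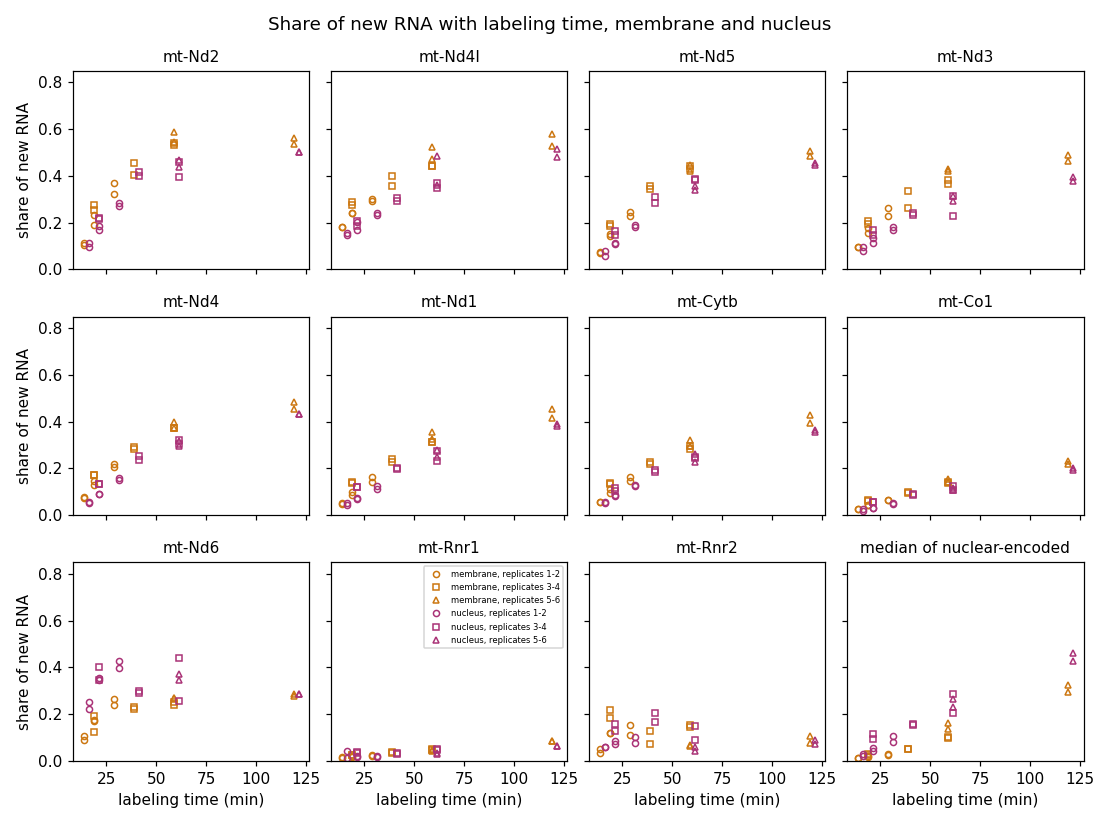
Share of new RNA against labeling time (min) in the membrane and the nucleus, 1 panel per RNA, 1 point per library with replicate pairs as symbols, and the median of nuclear-encoded genes in the last panel. Shares of mt-Nd2 and mt-Nd6 level off by 60 min, whereas mt-Co1 and mt-Rnr1 were still rising at 120 min.

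The leveling was compared as the ratio of the 120 to the 60 min share within replicates 5 and 6. In the membrane it was 0.972 for mt-Nd2 (0.961 and 0.984), 1.04 for mt-Nd6 (1.03 and 1.05), 1.11 for mt-Nd3 and mt-Nd4l, and 1.14 for mt-Nd5. It was higher for mt-Nd4 (1.21), mt-Nd1 (1.26), mt-Cytb (1.33) and mt-Co1 (1.53), and highest for mt-Rnr1 (1.91, from 1.85 and 1.97). The median share of nuclear-encoded genes increased 2.08-fold (2.02 and 2.14) over the same hour. These are ratios of 2 libraries each and were not tested.

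Half-lives were fitted to the membrane shares with a single exponential, the form of decay at a constant level of RNA. They ranged from 59.8 ± 12.4 min (SD between the 3 replicate pairs) for mt-Nd2 and 67.4 ± 14.4 min for mt-Nd4l, through 84.5 ± 15.6 for mt-Nd5, 91.2 ± 14.2 for mt-Nd3 and 98.8 ± 14.0 for mt-Nd4, to 121 ± 16.7 for mt-Nd1 and 130 ± 12.9 for mt-Cytb. Neighbours in this order differed by less than the sum of their SDs. The replicate pairs were labeled for different times and, by the study's methods, at different doses, so that these SDs also hold such differences. Replicates 5 and 6, labeled longest, gave the longest value for mt-Nd2 (74.55 min, the other pairs 56.73 and 50.76). They did not for mt-Nd1 (127.8 min, the other pairs 139.1 and 106.3). For mt-Nd4l and mt-Nd4, which need not be separate RNAs, the part of read placement in their different half-lives was not tested. The value of mt-Co1 was 297 ± 27.3 min, those on the copies of mt-Co2, mt-Co3 and mt-Atp6 were 208, 202 and 267 min, and that of mt-Rnr1 was 869 ± 76.8 min. They lay beyond the spread of mt-Cytb. The single exponential holds no separate term for cell growth. The paper calls confounding by the cell cycle minimal, because its own estimates are typically an order of magnitude below that cycle. The value of mt-Rnr1 is not: it is about as long as the cycle the paper gives. It is also extrapolated far beyond the longest labeling. The values of mt-Co1 and of the copies of mt-Co2, mt-Co3 and mt-Atp6 are not an order of magnitude below that cycle either. They too are longer than the longest labeling. The part of cell growth in all these values was not tested.

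For mt-Nd6 the pairs gave 75.8, 124 and 205 min, and for mt-Rnr2 142, 206 and 793 min, so that no single half-life described them. A curve with a fitted plateau shortened all values. It gave 26.9 min with a plateau at a share of 0.636 for mt-Nd2, 15.9 min and 0.283 for mt-Nd6, 59.4 min and 0.598 for mt-Nd1, 106 min and 0.419 for mt-Co1, and 130 min and 0.181 for mt-Rnr1. The median of the 9 mRNAs was 98.8 min without and 36.5 min with a plateau. In whole cells the median was 123 min, and 101 min without the 2 libraries of replicate 6 named above.

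**Figure D4:**
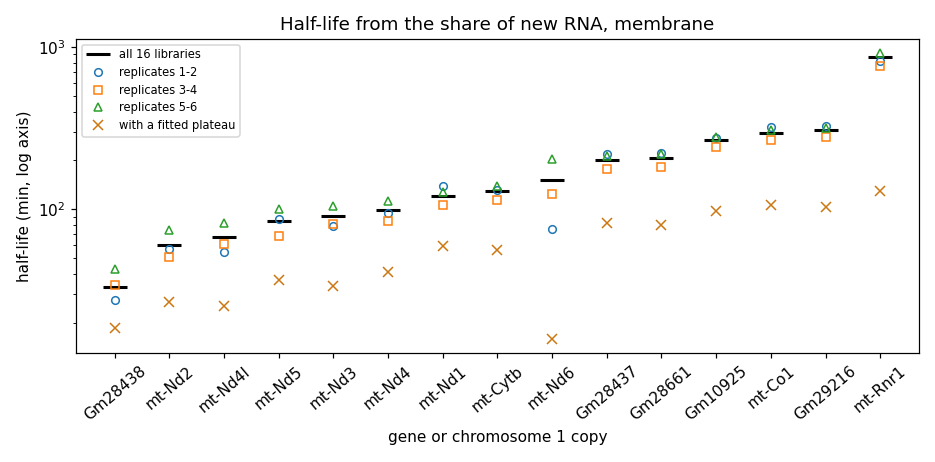
Half-life in min (log axis) from membrane shares for each RNA and for the chromosome 1 copies, from all 16 libraries (bars), from each replicate pair (open symbols) and with a fitted plateau (crosses). From all libraries the complex I mRNAs lie at 59.8 to 151 min, mt-Co1 at 297 min and mt-Rnr1 at 869 min.

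Compared with nuclear-encoded genes in the membrane, new mitochondrial mRNA formed a larger share, and the difference was smallest at 120 min. Both were divided by the same conversion rate of the library, which was not measured for mitochondrial RNA alone. At 15 min in the membrane the summed share of 0.0472 and 0.0495 stood beside medians of 0.0141 and 0.0136 for nuclear-encoded genes. At 120 min in replicates 5 and 6 the values were 0.356 and 0.331 beside 0.325 and 0.296. The log2 ratio was 1.74 and 1.86 at 15 min, 2.46 and 2.33 at 30 min, and 0.13 and 0.16 at 120 min. It was 0.57 and 0.65 in the 120 min membrane libraries of replicates 3 and 4, which were set aside. Over 16 libraries it was 1.61 ± 0.76 (SD) and higher in 16 of 16 (permutation test by sign flips, p = 3.05e-05, the smallest possible, adjusted over 4 fractions 0.000122). With the copies included it was 1.37 and positive in 15 of 16, and with the median over genes 2.33.

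In the cytosol the log2 ratio was 1.74 ± 0.92 and positive in 14 of 16 libraries (adjusted permutation p = 0.000244), and in whole cells 1.01 ± 0.72 and positive in 14 of 16 (adjusted permutation p = 0.000529). Without the 60 and 120 min libraries of replicate 6 the whole-cell ratio was 1.17 ± 0.60. In the nucleus, where nuclear-encoded RNA is itself young, the median ratio was 0.023 with a SD of 0.43, and 9 of 16 libraries were above 0 (permutation p = 1.00). That value averages times of opposite sign. The nuclear log2 ratio was 0.55 and 0.81 at 15 min in replicates 1 and 2. It was -0.47 to -0.17 at 60 min in replicates 3 to 6, and -0.63 and -0.55 at 120 min in replicates 5 and 6. The nuclear value over all libraries also changed its sign or call with the genes summed: it was -0.22 with the copies (adjusted permutation p = 0.0424) and 0.64 with the median over genes (adjusted permutation p = 0.000305).

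Between fractions the share of mitochondrial mRNAs differed in the opposite direction to that of most genes. In a limma fit of log2(share + 0.01) over 11575 genes with 400 T counts in all 64 libraries, 10 members could be tested. All 8 mRNAs among them were lower in the nucleus than in the membrane, where 0.743% of all genes were lower and 87.1% were higher. The members' differences ran from -0.35 ± 0.07 (SE) for mt-Nd3 (adjusted p = 1.4e-05) to -0.21 ± 0.06 for mt-Nd2 (adjusted p = 0.000621), against a median of 0.92 over all genes.

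Single libraries show the size of this. At 60 min in replicates 3 to 6 the share of mt-Nd4 was 0.323, 0.305, 0.318 and 0.295 in the nucleus and 0.372, 0.374, 0.399 and 0.375 in the membrane, without overlap. The share of mt-Nd2 was 0.461, 0.396, 0.468 and 0.440 in the nucleus against 0.534, 0.543, 0.587 and 0.546 in the membrane, also without overlap. At 15 min the fractions overlapped, with 0.115 and 0.0965 for mt-Nd2 in the nucleus and 0.103 and 0.112 in the membrane. Each share is divided by the conversion rate of its library. At 60 min in replicates 3 to 6 that rate was 7.66%, 8.29%, 3.25% and 3.53% in the nucleus. In the membrane it was 6.97%, 8.09%, 2.64% and 2.82%. Undivided T2C conversions of mt-Nd2 were 3.53%, 3.28%, 1.52% and 1.55% of T bases in the nucleus. They were 3.72%, 4.39%, 1.55% and 1.54% in the membrane. The part of the rates in the differences of share was not tested. The rRNAs were not called: mt-Rnr1 differed by -0.016 ± 0.13 (adjusted p = 0.905) and mt-Rnr2 by -0.14 ± 0.13 (adjusted p = 0.335). Of the 36 mRNAs for mitochondrial expression factors 32 (88.9%) were higher in the nucleus and none lower, close to the 87.1% of all genes.

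The light-strand mt-Nd6 went the other way. In the nucleus its share was 0.251 and 0.220 at 15 min, 0.355, 0.345, 0.402 and 0.345 at 20 min, 0.396 and 0.427 at 30 min, and 0.301 and 0.290 at 40 min. At 60 min it was 0.438, 0.258, 0.372 and 0.348, and at 120 min 0.285 and 0.286, where the membrane had 0.276 and 0.286. Up to 40 min each nuclear value was above each membrane value of the same time. It had too few T counts in the cytosol for the fit over all fractions. Without the cytosol libraries, a choice made after seeing the data, its log2 difference was 0.66 ± 0.09 (limma, adjusted p = 3.06e-08).

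**Figure D5:**
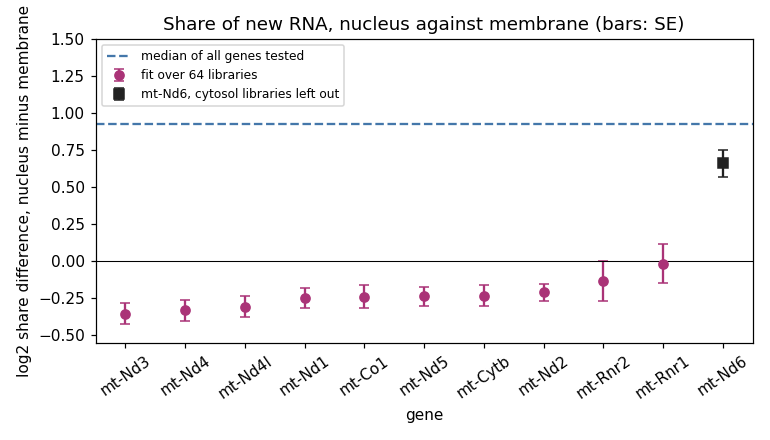
Log2 difference of the share of new RNA, nucleus minus membrane, with SE, for the 10 members of the fit over 64 libraries and for mt-Nd6 in the fit without cytosol libraries. The 8 heavy-strand mRNAs lie below 0, mt-Nd6 lies above 0 at 0.66, and the dashed line is the median of all genes at 0.92.

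Between cytosol and membrane the shares of mitochondrial RNAs were closer. Of the same 10 members 1 was called, mt-Nd2, lower in the cytosol by 0.21 ± 0.06 on the log2 scale (limma, adjusted p = 0.00585), where 13.8% of all genes were called in either direction and 3.79% lower. At 60 min its cytosolic share was 0.519, 0.468, 0.508 and 0.516, below the lowest membrane value of 0.534. The call was lost without replicate 2 (adjusted p = 0.113). For mt-Co1 the difference was 0.21 ± 0.08 (adjusted p = 0.0680), which was called without replicate 6 (adjusted p = 0.0164). The other members differed by -0.14 ± 0.06 (mt-Nd5) to 0.27 ± 0.13 (mt-Rnr1), and none of these was called.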

How the data were processed

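Poly(A)-selected, stranded libraries were read as pairs of 75 bases. The authors aligned reads with STAR 2.7.6 to GRCm38 (Gencode M14), allowing several positions per read, and deposited unnormalized HTSeq 0.11.1 counts per gene. Other deposited files hold counts of T bases and T2C conversions per gene, with known variants removed by the authors, the conversion rate of each library as a fraction (from a mixture of binomials), and the ratio T2C/T over that rate. RSEM 1.3.3 is among the tools in the submitters' processing notes. How reads that match both a mitochondrial gene and a nuclear copy were placed bears on the counts of these genes and was not tested.

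Shares were recomputed from these counts. Levels were compared with edgeR 4.0.16 (R 4.3.3; filterByExpr, TMM, quasi-likelihood, Benjamini-Hochberg over all genes). The fit across fractions used 64 libraries with labeling time and replicate pair as covariate, and the fits across time used the 18 libraries of a fraction. DESeq2 1.42.0 was an alternative. Shares were compared with limma 3.58.1 on log2(share + 0.01). Summed shares had two-sided permutation tests. Copies were found with blastn 2.17.0 (at least 95% identity over 50 bases), and protein sequences were not used here. The fits were tested on simulated data. HTSeq's 5 summary lines were left out. Replicate libraries differed by more than sampling noise in all 36 pairs. Intervals for counting error were not used, and the spread between libraries is given instead. Of the genes, every mt mRNA and rRNA, the 5 most counted tRNAs and the called expression factors with the most extreme differences were to be named. mt-Ta was named in addition, after its values were seen. The members and lists were chosen with earlier results of these data known.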

Additional observations from a re-analysis of the deposited data

Results flagged for a closer look

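Single libraries stood apart from the others of their fraction and time in 3 of 80 groups of at least 4 libraries, where chance gives about 1 in 20. At 60 min in the membrane the summed share of the 13 mitochondrial mRNAs was 0.2745 in replicate 5 and 0.253 to 0.256 in the other 3 replicates. At 60 min in whole cells it was 0.3076 in replicate 6, whose 60 and 120 min whole-cell libraries went against their labels, and 0.245 to 0.254 in the others. The whole-cell level of mt-Nd6 at 20 min was 288.6 CPM in replicate 1 and 112.9 to 141.0 CPM in replicates 2 to 4. In replicate 1 it was also high at 15 min (276.3 CPM, replicate 2 126.8) and at 30 min (263.0 CPM, replicate 2 145.0).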

How the results depend on the processing

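Under 13 alternatives 12 to 16 members were called higher in the membrane than in the cytosol or the nucleus and 12 to 15 in the nucleus than in the cytosol, and 7 to 9 were called for the share in nucleus and membrane. These counts include tRNAs and mt-Nd6, with few cytosolic reads, and add nothing on their direction. In the fits described above 24.6%, 28.5% and 43.7% of all genes were higher in these comparisons. For the share 87.1% were higher and 0.743% lower in the nucleus. Without a filter on low counts 23 members were called between membrane and cytosol, 1 in whole cells from 20 to 120 min, 2 from 60 to 120 min and 11 between replicate pairs at 20 min, and 2 and 3 in the membrane from 20 to 60 and from 20 to 120 min. Over all genes 8800 of 35506 were then called between membrane and cytosol. In whole cells 227, 49 and 4057 of 31434 were called, in the same order, and in the membrane 21 and 116 of 30156. The cause was not tested beyond the 28 or 29 members then fitted. Leaving out a replicate gave 0 to 1 calls in whole cells from 20 to 120 min, 0 to 9 between replicate pairs at 20 min, and 0 to 2 for the share between cytosol and membrane, which was also 2 with a pseudocount of 0.001. The nuclear log2 ratio of mitochondrial to nuclear-encoded shares was 0.64 with the median over genes and -0.22 with the copies. The median over genes gave -0.33 for mt-Nd6 and 0.41 for complex IV, and leaving out a replicate gave 0.25 to 0.49 for mt-Nd6. The median half-life was 36.5 min in the membrane and 29.9 min in whole cells with a fitted plateau, and 87.5 min in whole cells without replicates 5 and 6. For single genes 820 values kept their side of the threshold and 10 did not, among them mt-Tt between nucleus and cytosol, with 0.87 to 1.06 and an adjusted p of 0.0574 to 0.151 in 6 alternatives.

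Replicate numbers were not taken as pairs. Fractions of the same culture deviated together by over 0.1 in 43 of 54 correlations, and times of the same number in 32 of 40. With the replicate block 16 members were called higher in the membrane than in the cytosol or the nucleus and 14 in the nucleus than in the cytosol, none over time, and 8 and 1 for the shares. These members again include tRNAs and mt-Nd6. Of 17755 genes 4421, 6841 and 6559 were higher in the same comparisons, and for the shares 10152 and 1534 of 11575 genes were called. No paired analysis was possible for replicates 3 and 4 against 1 and 2 because they share no number.

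The conversion rate of a library scales all its shares, and the cytosol was too shallow for mt-Nd6. Over time there were 2 libraries per group.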
